A study of Mus musculus with 12 samples.

Results

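Regulatory T cells (Treg) were compared with conventional T cells (Tconv) of B6.H2g7 mice, gene by gene across the genome. The comparison took the 3 arrays titled as CD4+CD25+ Treg of this strain and the 3 titled as CD4+CD25- Tconv, 6 of the 12 arrays of the series, and the other 6 hold the same populations of NOD mice. B6.H2g7 mice are B6 mice congenic for the MHC class II allele Ag7, the H2g7 haplotype that NOD mice carry. Both groups came from spleens of mice aged 6 weeks, with RNA of 3 mice pooled for each array, and the series text calls the pools independent. Cells were enriched on magnetic columns for the presence or absence of CD25 and then sorted in a double pass. Both groups were gated as CD4+ and as negative for CD8a, CD11b, CD69 and B220, with Treg taken as CD25-high and Tconv as CD25-. After restaining, 94%, 96% and 96% of the cells in Treg pools 1, 2 and 3 were Foxp3+. The 4% to 6% of sorted cells without Foxp3 and the selection against CD69, a surface protein of recent activation, limit what these pools stand for.

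Treg cells are CD4 T cells that restrain immune responses and are programmed by the transcription factor Foxp3. They carry CD25, the alpha chain of the interleukin-2 (IL-2) receptor, at high density, depend on IL-2 made by other T cells, and signal through the beta and gamma chains to the factor STAT5. They act through inhibitory receptors such as CTLA-4, through consumption of IL-2, through adenosine made from extracellular ATP, and through activation of transforming growth factor beta (TGF-beta).

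Values are log2 of the normalized intensities, given in the order of replicates 1, 2 and 3, and a change is the Treg mean minus the Tconv mean on the log2 scale with the standard error (SE) of the fit (n = 3 arrays per group). A gene was called at an adjusted p under 0.05 in limma, adjusted over all 45037 probe sets, and is represented by its brightest probe set. In such bulk samples fewer cells of a type and less RNA per cell cannot be told apart.

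Both genes that define the populations followed the labels on every array. Foxp3 read 10.69, 11.22 and 11.08 in Treg and 5.58, 5.63 and 5.83 in Tconv, a 39.9-fold difference (5.32 ± 0.20, adjusted p = 1.66e-08). Il2ra, which encodes CD25, read 10.94, 11.10 and 11.03 against 5.50, 5.72 and 5.83, a 40.4-fold difference (5.34 ± 0.10, adjusted p = 3.09e-11). The groups lay far apart for both genes. Since CD25 was the sorted protein, the Il2ra difference follows the gate and is a check of it. A second, dimmer Il2ra probe set differed by 1.85 ± 0.32 (adjusted p = 0.00479). The T cell genes Cd3e (11.84, 12.38 and 12.13 in Treg, 12.37, 12.41 and 12.65 in Tconv) and Cd4 (9.31, 9.71 and 9.82 against 10.10, 10.09 and 10.15) were measured in both groups. Neither passed the test, at changes of -0.36 (adjusted p = 0.422) and -0.50 (adjusted p = 0.0744), and the Cd4 arrays did not overlap. Itgam, the gene of CD11b, was dim on all arrays, with group means of 4.76 and 4.72. Cd8a (7.62 ± 0.11 in Treg and 7.59 ± 0.21 in Tconv, mean ± SD), Ptprc, whose B cell form is B220 (13.58 ± 0.04 and 13.56 ± 0.08), and Cd69 (10.92 ± 0.09 and 10.65 ± 0.15) had adjusted p-values of 0.969, 0.972 and 0.566.

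Of the 18193 genes with a probe set of their own, 827 were called (4.55%), 517 higher in Treg (2.84%) and 310 lower (1.7%). By probe set the counts were 1519 of 45037 (3.37%), 917 higher (2.04%) and 602 lower (1.34%). The increases were the larger set and the larger changes: 207 genes were at least 2-fold higher, 54 at least 4-fold and 18 at least 8-fold, against 103, 22 and 8 genes lower by those amounts. The median size of a called change was 0.84 for higher and 0.74 for lower genes, and over all genes the median change was 0.00 and the 5th and 95th percentiles were -0.33 and 0.36. Arrays of the groups did not overlap for 1803 genes higher in Treg (9.91%) and 1225 lower (6.73%), called or not. Of the called genes with further probe sets, 116 of 291 higher and 77 of 193 lower genes had another one called the same way, and 0 had one called the opposite way. Array medians lay between 83.9 and 88.6 on the linear scale. Correlations were 0.983 to 0.9955 between arrays of a group and 0.9706 to 0.9882 between the groups. The gap between the 3' and 5' probe sets for actin, wider in shorter RNA, was 3.98 ± 0.40 (SD) in Tconv and 3.83 ± 1.03 in Treg, with Treg array 1 lowest at 2.66. With this difference as a covariate 2496 probe sets were called, and with only the 6 arrays of this strain 976.

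**Figure D1:**
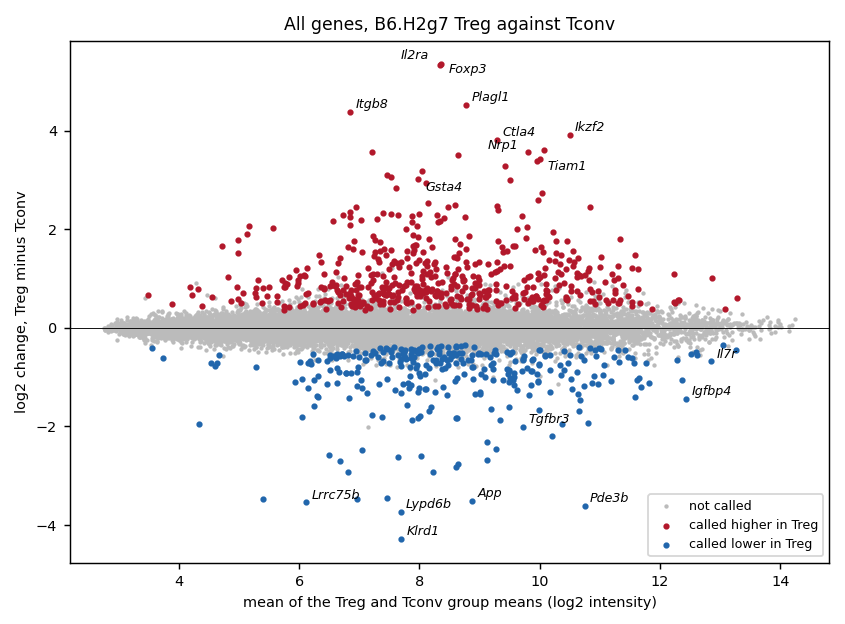
Each point is a gene, with the mean of its Treg and Tconv group means (log2 intensity) on the horizontal axis and the Treg minus Tconv change (log2) on the vertical axis. The 517 genes called higher are red, the 310 called lower are blue and the others grey. Called genes lie at all but the lowest intensities, and Il2ra and Foxp3 stand above all others.

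Among the 30 largest increases were 6 genes of transcription factors or their regulators, Foxp3 included. Plagl1, a zinc finger factor, read 11.33, 10.83 and 10.93 in Treg against 6.35, 6.41 and 6.77 in Tconv, 22.9-fold higher. Ikzf2 (Helios) read 12.86, 12.39 and 12.11 against 8.41, 8.91 and 8.31, and Ikzf4 (Eos) read 11.58, 11.59 and 11.77 against 8.08, 8.48 and 8.22. Both Ikaros family genes were more than 8-fold higher and their groups were more than 3 log2 units apart (changes of 3.91 ± 0.19 and 3.38 ± 0.11). Of the other Ikzf2 probe sets 1 was called at 3.59 and 1 stood at 0.21 (adjusted p = 0.708), and those of Ikzf4 stood at 2.76, called, and 0.00, not called. The dimmer Plagl1 probe sets had differences of 0.29 and 0.16 without a call, so the 22.9-fold value rests on the brightest. Gata1, best known as the master factor of red cell development, read 10.12, 10.44 and 10.92 against 7.99, 8.03 and 8.31 (5.22-fold higher, adjusted p = 4.19e-06). The erythroid genes Alas2, Hba-a1, Klf1 and Epor had differences of -0.13, -0.12, 0.00 and 0.04, none of them called. Mdfic, an inhibitor of MyoD family factors, had the smallest error of this set and was 8.03-fold higher (3.00 ± 0.09), with 10.98, 11.06 and 10.99 against 8.05, 7.94 and 8.02.

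Surface receptors and adhesion molecules formed another large share of the top increases. Ctla4, the inhibitory receptor that competes with CD28 for its ligands, was 14-fold higher but varied most: 12.09, 10.74 and 10.77 in Treg against 7.45, 7.70 and 7.01 in Tconv (3.81 ± 0.50, adjusted p = 0.000547). The high value belongs to Treg array 1, the array with the lowest actin difference, and the part of RNA length in it was not tested. Nrp1, a co-receptor for semaphorins and vascular growth factor, was steady at 11.55, 11.50 and 11.68 against 8.22, 7.94 and 7.90 (11.8-fold). Its 3 other probe sets were called too, at changes of 3.45, 3.56 and 2.27. Gpr83, a G protein-coupled receptor, was 12.1-fold higher, with 12.08, 11.91 and 11.63 against 8.36, 8.20 and 8.27. Itgb8, the integrin beta 8 chain that helps to release active TGF-beta from its latent form, read 9.27, 9.24 and 8.62 against a dim 4.50, 4.88 and 4.61 (4.38 ± 0.23), so no fold is given. Prnp, the prion protein gene, was 5.77-fold higher and Lad1, an anchoring filament protein gene, 7.65-fold, the latter with a wide Treg range of 8.75, 9.81 and 10.18.

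Signalling genes among the 30 covered several enzyme classes. Dusp4, a phosphatase that switches off MAP kinases, was 11.9-fold higher, at 8.94, 9.09 and 8.95 against 5.50, 5.40 and 5.37. Map3k8, a kinase upstream of the same cascade, was 8.36-fold higher, at 9.04, 8.86 and 9.24 against 6.31, 5.92 and 5.73. An activator and an inhibitor of MAP kinase signalling were thus both higher in Treg on every array. Tiam1, an exchange factor that activates the GTPase Rac, was 10.7-fold higher by its bright probe set, while 2 dim ones were not called, at 0.10 and 0.03. Rgs1 and Rgs16, which shorten G protein signals, were 8.97-fold and 5.63-fold higher. Pmaip1, the pro-apoptotic protein Noxa, was 7.15-fold higher, with 9.25, 8.91 and 8.91 against 6.54, 6.26 and 5.77.

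The remaining increases of this rank were of mixed function. Ntn4, a secreted netrin, was 8.53-fold higher, Itih5, a hyaluronan-binding heavy chain, 9.77-fold, and the glutathione transferase genes Gsta4 and Gsto1 were 8.1-fold and 5.43-fold higher. Slc35d1, a nucleotide sugar transporter, changed by 2.46 ± 0.13, Hmgn3, a nucleosome-binding protein, by 2.44 ± 0.18, and Usp27x, a ubiquitin protease, by 2.34 ± 0.18. Gbp3, an interferon-inducible GTPase, was 6-fold higher and Naip5, a cytosolic sensor of bacterial flagellin, 5.47-fold with Treg values of 8.85, 7.57 and 8.07. None of the 30 genes had Treg and Tconv arrays that overlapped, which was a condition for the ranking.

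**Figure D2:**
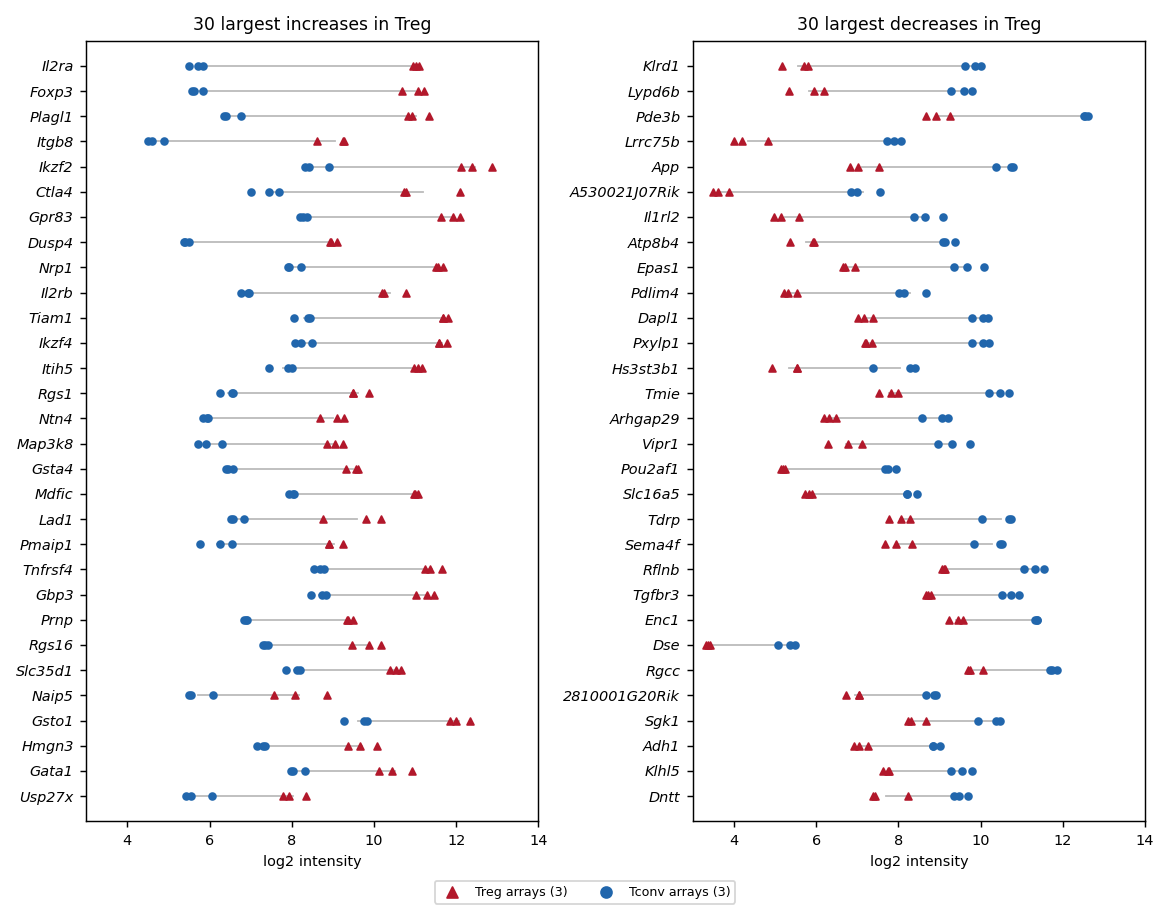
Log2 intensity of the 30 genes with the largest increase (left) and the 30 with the largest decrease (right) in Treg among called genes whose arrays do not overlap. Red triangles are the 3 Treg arrays, blue circles the 3 Tconv arrays and grey lines join the group means. The gap shrinks from over 5 log2 units for Il2ra to 2.34 for Usp27x on the left, and from 4.28 for Klrd1 to 1.82 for Dntt on the right.

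The largest decrease in Treg was that of Klrd1, the CD94 chain of killer cell lectin receptors, which read 5.16, 5.79 and 5.71 in Treg and 9.83 ± 0.19 (mean ± SD) in Tconv (19.4-fold lower, adjusted p = 1.52e-07). Of genes of the same receptor family, Klrc1, Klrc2 (dim) and Klrk1 had differences of -0.05, -0.01 and -0.04, none called. Pde3b, which degrades cyclic AMP, fell from 12.52, 12.60 and 12.54 in Tconv to 8.67, 9.26 and 8.91 in Treg, a 12.2-fold difference. App, the amyloid precursor protein gene, was 11.4-fold lower, with 6.81, 7.53 and 7.02 against 10.74, 10.78 and 10.37. One further App probe set was called lower (-0.68) and 2 dim ones were not called. Lypd6b, a membrane-anchored Ly6 family protein, was 13.3-fold lower, and Atp8b4, a phospholipid flippase, 11-fold.

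Receptors and their signals were also among the decreases. Il1rl2, the receptor for IL-36 cytokines, dropped to a dim 4.98, 5.14 and 5.57 in Treg from 8.65, 9.08 and 8.37 (-3.47 ± 0.17). Vipr1, a receptor for vasoactive intestinal peptide, read 6.29, 6.78 and 7.11 against 9.73, 9.31 and 8.95, 6.07-fold lower. Tgfbr3, the TGF-beta co-receptor betaglycan, was 4.02-fold lower and Sema4f, a semaphorin, 4.97-fold. Sgk1, a kinase induced by serum and glucocorticoids, was 3.65-fold lower, with 8.67, 8.23 and 8.30 against 10.48, 10.37 and 9.94. Epas1, the hypoxia-inducible factor HIF-2 alpha, was 7.64-fold lower by its bright probe set, while a dimmer one did not pass (-0.26, adjusted p = 0.426).

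Other decreases fell on enzymes and structural proteins. Hs3st3b1, which sulfates heparan chains, was 6.48-fold lower, Pxylp1, a phosphatase of the proteoglycan linker, 6.82-fold, and Dse, a dermatan epimerase, went to a dim level of 3.41, 3.36 and 3.31 from 5.35, 5.49 and 5.07. Pdlim4 and Rflnb, both tied to the actin skeleton, were 7.61-fold and 4.59-fold lower. Dntt, the terminal transferase of immature lymphocytes, was still 3.53-fold lower in Treg, with 7.39, 8.23 and 7.44 against 9.68, 9.35 and 9.48. Pou2af1, a B cell coactivator, read 5.14 to 5.25 in Treg, dim on average, and 7.74, 7.94 and 7.67 in Tconv. Of B cell surface genes, Ms4a1 stood at 0.07 and Cd79a at 0.08, neither called, while Cd79b was called higher (0.84 ± 0.10). Of all 17 B cell markers measured, 2 were called higher and 1, Pou2af1, lower, where 2.84% and 1.7% of all genes were. Others of the 30 were Dapl1 (7.1-fold lower), Tmie (6.43-fold), Slc16a5 (5.56-fold), Tdrp (5.48-fold), Enc1 (3.86-fold), Rgcc (3.83-fold), 2810001G20Rik (3.67-fold), Adh1 and Klhl5 (both 3.54-fold), and Arhgap29 (6.16-fold). Lrrc75b read a dim 4.83, 4.20 and 4.01 in Treg against 7.89, 7.71 and 8.05 in Tconv (-3.54 ± 0.22), and A530021J07Rik a dim 3.88, 3.62 and 3.48 against 7.54, 6.99 and 6.85.

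The IL-2 receptor and its feedback inhibitor rose together, while the receptor of IL-7 fell. Il2rb, the beta chain shared by the IL-2 and IL-15 receptors, read 10.20, 10.24 and 10.78 in Treg against 6.97, 6.77 and 6.94 in Tconv (11.4-fold), and its second probe set changed by 0.68 (adjusted p = 0.000707). Cish, an inhibitor induced by STAT5, was nearly constant in Treg at 10.78, 10.82 and 10.81 and lay at 8.70, 8.52 and 9.07 in Tconv (4.12-fold, adjusted p = 3.26e-06). Il7r read 12.67, 12.49 and 12.38 against 13.15, 13.28 and 13.14 (-0.68 ± 0.11, adjusted p = 0.00374), 1.6-fold lower. Of 8 receptor genes of the IL-2 family, 2 were called higher and 1 lower, with a median change of -0.10. Over all genes 2.84% were called higher and 1.7% lower. Il4ra (-0.50), Crlf2 (-0.32), Il9r (-0.14), Il21r (-0.06) and Il15ra (0.25) did not pass. Among 10 kinase and factor genes of the JAK and STAT families, Stat5a (0.55, adjusted p = 0.0155) and Stat5b (0.56, adjusted p = 0.0438) were the 2 called. Both STAT5 calls were weak. Stat5a lost its call without Tconv array 2, Treg array 2 or Treg array 3 (adjusted p from 0.0682 to 0.0854), and Stat5b without Tconv array 1 or 3 or Treg array 1 or 3 (0.0761 to 0.184). Among the 8 SOCS family genes Socs5 (0.92, adjusted p = 0.0404) was called beside Cish, but lost the call without any one array other than Treg array 3 (0.0657 to 0.157), and Socs1 (0.35), Socs2 (0.31) and Socs3 (0.59) did not pass.

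**Figure D3:**
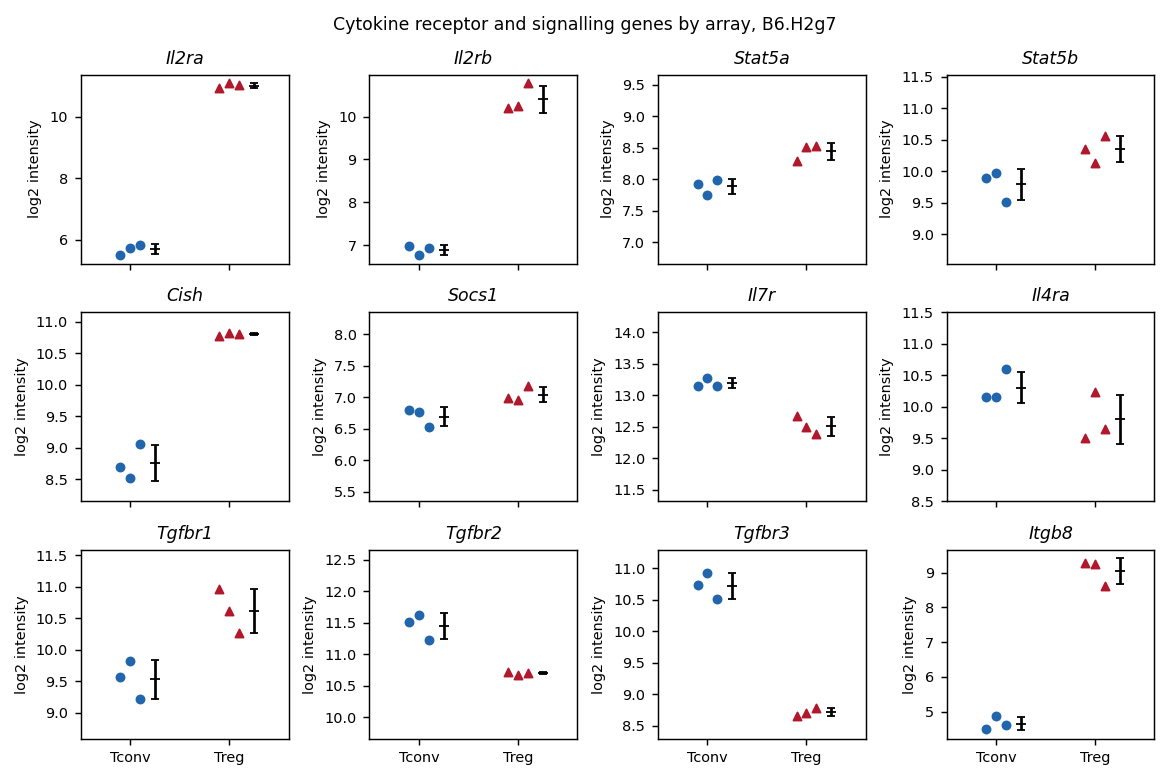
Log2 intensity by array of 12 genes of the IL-2, IL-7, IL-4 and TGF-beta receptors and their signalling, with Tconv as blue circles, Treg as red triangles and the mean ± SD (n = 3) in black. Each panel has its own vertical axis of at least 3 log2 units. Il2ra, Itgb8 and Il2rb show the widest gaps, and Il4ra overlaps between the groups.

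Receptors of TGF-beta moved in opposite directions. Tgfbr1, the signalling kinase chain, was higher in Treg, at 10.96, 10.62 and 10.26 against 9.57, 9.82 and 9.21 (2.11-fold, adjusted p = 0.0108). Tgfbr2, the ligand-binding chain, was lower at 10.72, 10.67 and 10.71 against 11.52, 11.62 and 11.23 (1.69-fold, adjusted p = 0.00125), and Tgfbr3 was lower at 8.66, 8.71 and 8.79 against 10.73, 10.93 and 10.51. The groups did not overlap for any of the 3. The Tgfbr1 call was lost without Tconv array 3 (adjusted p = 0.0508), and the dimmer probe sets of Tgfbr1 and Tgfbr2 were not called. Of 17 genes of this pathway 4 were called higher and 3 lower (median 0.07), where 2.84% and 1.7% of all genes were. Beside the receptors these were Itgb8, Skil (0.39, adjusted p = 0.0234), Tgif1 (0.52, adjusted p = 0.0241) and Smad7 (-0.45, adjusted p = 0.0399). Tgif1 and Smad7, a repressor and an inhibitor of the pathway, lost their calls without any one of the 6 arrays (adjusted p up to 0.101 and 0.158), and Skil without Tconv array 1 or 3 or Treg array 2 or 3 (up to 0.0963). The ligand genes Tgfb1, Tgfb2 and Tgfb3 did not pass, at 0.20, 0.20 and -0.33. Without 1 array between 1 and 3 genes of the list were called higher and 2 lower.

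The TNF receptor superfamily, whose members carry costimulatory and survival signals, was shifted to Treg: 6 of 14 measured genes were called higher and 0 lower, with a median change of 0.37, where 2.84% of all genes were called higher and the median was 0.00. Tnfrsf4 (OX40) read 11.23, 11.35 and 11.66 in Treg against 8.69, 8.55 and 8.79 in Tconv, 6.68-fold higher. Tnfrsf18 (GITR) read 11.01, 10.83 and 10.68 against 9.43, 9.05 and 9.11, 3.12-fold higher. Both genes had Treg arrays more than 1 log2 unit above the highest Tconv array. Tnfrsf9 (4-1BB) was 2.56-fold higher, with 1 Tconv array at 8.04 and the others at 7.16 and 7.13. Tnfrsf1b, the second TNF receptor, changed by 1.14 ± 0.14, Tnfrsf13b, the receptor TACI, by 0.92 ± 0.15 and Tnfrsf25, death receptor 3, by 0.69 ± 0.14 (adjusted p = 0.0126). Tnfrsf25 lost its call without Tconv array 2 or 3 or Treg array 1 or 2 (adjusted p from 0.0501 to 0.0622). Fas (0.39), Cd27 (0.36), Cd40 (0.17) and Tnfrsf1a (-0.10) were among those not called.

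The 250 bases before the start sites were read from RefSeq (GRCm38.p6) and searched on both strands for 4 short motifs, spelled TTCNNNGAA for STAT factors, GGGA and any base before TTTCC for NF-kB, TGANTCA for AP-1 and GTAAACA for forkhead factors. The STAT spelling stood in 4 of the 8 promoters of called TNF receptor genes and in 2 of the 6 of uncalled members, where 6.21% of all promoters of genes on the array held it. Such a count was made for this family alone among the 52 gene lists and for this spelling alone among the 4. That choice limits what the difference from 6.21% can show. A match is a description of letters and not a site. The 4 promoters with it are shown from the 6 called receptors, whereas those of Tnfrsf4 and Tnfrsf13b, also higher, lack it, and the promoters of Foxp3 and Mdfic because they belong to the largest increases with such letters. Il7r and Dapl1 are shown as genes that were lower in Treg and held a match to 1 of the 4 motifs. For Tnfrsf9, Tnfrsf25 and Foxp3 the table gives 2 start sites, and the promoter with the match is shown. Matches are in capitals.

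Tnfrsf18, chr4:156026072-156026321, plus strand: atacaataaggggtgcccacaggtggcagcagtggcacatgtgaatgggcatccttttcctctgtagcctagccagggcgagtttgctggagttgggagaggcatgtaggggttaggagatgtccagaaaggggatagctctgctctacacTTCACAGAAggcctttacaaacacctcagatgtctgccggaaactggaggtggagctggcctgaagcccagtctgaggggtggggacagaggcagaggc

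Tnfrsf9, chr4:150927749-150927998, plus strand: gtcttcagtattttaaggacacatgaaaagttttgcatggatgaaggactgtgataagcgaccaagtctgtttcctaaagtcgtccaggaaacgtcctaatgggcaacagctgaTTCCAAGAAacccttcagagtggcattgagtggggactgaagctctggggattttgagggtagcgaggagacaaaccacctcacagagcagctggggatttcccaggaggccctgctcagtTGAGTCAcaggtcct

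Tnfrsf1b, chr4:145246871-145247120, minus strand: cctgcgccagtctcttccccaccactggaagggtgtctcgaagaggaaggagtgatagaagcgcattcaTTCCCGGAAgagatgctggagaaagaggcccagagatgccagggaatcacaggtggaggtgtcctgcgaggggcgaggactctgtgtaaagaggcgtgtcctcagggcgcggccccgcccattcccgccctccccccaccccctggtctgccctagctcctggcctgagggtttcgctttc

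Tnfrsf25, chr4:152116093-152116342, plus strand: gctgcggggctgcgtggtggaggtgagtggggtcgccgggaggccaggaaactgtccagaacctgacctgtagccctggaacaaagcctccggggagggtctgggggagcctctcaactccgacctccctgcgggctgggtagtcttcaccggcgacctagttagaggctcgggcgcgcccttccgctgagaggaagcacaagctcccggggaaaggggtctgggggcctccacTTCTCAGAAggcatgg

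Foxp3, chrX:7580233-7580482, plus strand: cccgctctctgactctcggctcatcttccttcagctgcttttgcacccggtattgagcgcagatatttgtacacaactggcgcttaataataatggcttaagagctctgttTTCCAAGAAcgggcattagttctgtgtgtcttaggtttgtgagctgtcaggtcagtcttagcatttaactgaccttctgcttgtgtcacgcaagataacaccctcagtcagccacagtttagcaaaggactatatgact

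Mdfic, chr6:15720411-15720660, plus strand: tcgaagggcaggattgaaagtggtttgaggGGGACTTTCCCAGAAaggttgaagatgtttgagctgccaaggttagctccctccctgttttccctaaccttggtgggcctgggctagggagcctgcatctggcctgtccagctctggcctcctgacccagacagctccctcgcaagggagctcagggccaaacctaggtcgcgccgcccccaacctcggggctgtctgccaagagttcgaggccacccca

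Il7r, chr15:9529877-9530126, minus strand: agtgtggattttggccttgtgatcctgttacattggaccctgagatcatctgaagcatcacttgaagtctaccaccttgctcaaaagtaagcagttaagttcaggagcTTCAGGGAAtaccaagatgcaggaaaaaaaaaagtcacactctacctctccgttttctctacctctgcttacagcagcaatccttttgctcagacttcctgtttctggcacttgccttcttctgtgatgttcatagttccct

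Dapl1, chr2:59484403-59484652, plus strand: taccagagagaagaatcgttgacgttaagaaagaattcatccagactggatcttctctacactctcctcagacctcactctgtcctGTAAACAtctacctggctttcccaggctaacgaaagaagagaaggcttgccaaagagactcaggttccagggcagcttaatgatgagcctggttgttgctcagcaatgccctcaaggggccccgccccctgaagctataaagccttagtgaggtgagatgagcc

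The STAT match began 99 bases before the start in Tnfrsf18, 136 in Tnfrsf9, 181 in Tnfrsf1b, 16 in Tnfrsf25, 139 in Foxp3 and 142 in Il7r. Tnfrsf9 held an AP-1 match 15 bases before the start as well. In Mdfic an NF-kB match beginning 220 bases before the start overlapped a STAT match beginning at 214, and Dapl1 held a forkhead match at 164. Il7r, which fell, and Foxp3, which rose, thus held the same kind of letters. Over all promoters of genes called higher the STAT spelling stood in 45 of 533 (8.44%), and over those of genes called lower in 17 of 349 (4.87%). For NF-kB the counts were 6 of 533 (1.13%) and 0 of 349, with 0.414% over the array. The 6 belonged to Anxa4, Eef2k, Mdfic, Myadm and Pglyrp1. AP-1 was in 6.75% and 4.58% of the promoters of higher and lower genes (5.62% over the array), and forkhead letters were in 3% and 2.01% (2.61%). The promoters of a gene can overlap, and no test was made of these shares. The promoters listed for Il2ra, Ctla4, Cish, Gpr83, Itgb8, Plagl1, Tnfrsf4 and Tnfrsf13b held none of the 4 spellings in this window. Those of App, Tmie and Id2, which were lower in Treg, held none either.

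Ligands of the same superfamily were less uniform. Tnfsf11 (RANKL) was higher in Treg at 8.47, 8.15 and 7.76 against 6.95, 6.54 and 6.21 (1.56 ± 0.27), Lta, lymphotoxin alpha, by 1.19 ± 0.12, and Tnfsf10 (TRAIL) by 0.63 ± 0.10. Fasl, the death ligand, was lower at 7.37, 7.38 and 6.88 against 8.73, 8.31 and 8.31 (-1.23 ± 0.15, adjusted p = 0.000271). The 8 other ligand genes, Cd40lg (0.00) and Tnf (-0.08) among them, did not pass. Among all genes 2.84% were called higher and 1.7% lower.

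Most calls among NF-kB genes were lost in some or all of the fits without 1 array. Of 15 subunit and inhibitor genes 5 were called higher and 0 lower, with a median of 0.21, where 2.84% of all genes were called higher. Nfkbiz, a nuclear regulator of NF-kB, kept its call without any one array (11.67, 11.19 and 11.40 against 10.20, 10.51 and 9.91, adjusted p = 0.00314). Bcl3 (1.19, adjusted p = 0.017) lost the call without Tconv array 1 or 2 or Treg array 2 or 3 (0.0552 to 0.0763). Tnfaip3 (1.0, adjusted p = 0.0482) lost it without any one array other than Treg array 2 (0.0786 to 0.175), Tnip1 (0.67, adjusted p = 0.0367) without any one other than Treg array 1 (0.081 to 0.14), and Relb (0.51, adjusted p = 0.0435) without any one of the 6 (0.0603 to 0.171). Rel (0.72, adjusted p = 0.0605), Nfkb2 (0.28) and Rela (0.20) did not pass. Leaving out 1 array gave between 1 and 3 called genes of this list. The count was 4 without the arrays numbered 1 and 4 with only the 6 arrays of this strain. With the actin covariate it was 6, and with array weights 7.

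Inhibitory and costimulatory receptors outside that family were mostly higher where they were called. Klrg1, a lectin receptor of differentiated T cells, read 9.74, 9.82 and 10.08 against 7.66, 7.64 and 7.58, 4.77-fold higher, and Cd200, a ligand that inhibits myeloid cells, was 3.35-fold higher. Cd5 (0.75 ± 0.12), which dampens T cell receptor signals, and Cd96 (0.58 ± 0.08) were higher, and Lair1, an inhibitory collagen receptor, was lower (-1.06 ± 0.16). Lag3 (0.13), Havcr2 (0.10, dim) and Cd160 (0.14) did not pass. Of 11 CD28 family genes and ligands 4 were called, all higher, where 2.84% of all genes were called higher. They were Ctla4, Pdcd1lg2 (0.85 ± 0.11), Cd86 (0.83 ± 0.12) and Pdcd1 (0.44, adjusted p = 0.0282). Pdcd1 lost its call without any one Tconv array or without Treg array 3 (adjusted p from 0.0718 to 0.117). Icos, listed among Treg-associated genes, did not pass (0.12, adjusted p = 0.806), nor did Cd28 (0.04). Slamf1, a self-ligand receptor of lymphocytes, was the 1 called gene of 8 in the SLAM family, 2.54-fold higher, and the tetraspanin Cd81 was 3.15-fold higher at 10.47, 10.43 and 10.33 against 8.82, 8.95 and 8.49.

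Of 9 measured genes of extracellular ATP and adenosine, 3 were called higher and 0 lower, where 2.84% of all genes were called higher. Their median change was 0.24. Nt5e (CD73), which makes adenosine, read 8.20, 7.55 and 7.62 against 6.26, 5.92 and 5.89 (3.39-fold), though its 2 other probe sets did not pass, at -0.07 and 0.01. Entpd1 (CD39), which degrades ATP, read 5.74, 5.84 and 5.83 against a dim 5.15, 4.74 and 5.09 (0.81 ± 0.12). P2rx7, an ATP-gated channel, read 9.80, 9.51 and 9.95 against 7.95, 7.77 and 7.96 (3.64-fold), with a second probe set at 2.37. The receptors P2ry14 (-0.37) and P2rx4 (0.29) and the adenosine deaminase gene Ada (0.24) did not pass.

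Genes that steer migration split between the groups. Ccr6, a receptor for the mucosal chemokine CCL20, was higher at 9.15, 8.72 and 9.16 against 7.93, 7.76 and 7.98 (1.12 ± 0.15), and Cxcr5, which guides cells to follicles, was higher by 0.64 ± 0.11. Ccr7, the lymph node homing receptor, was lower at 8.90, 9.09 and 9.13 against 9.94, 9.93 and 9.88 (-0.88 ± 0.13). Cxcr3, a receptor of type 1 responses, was lower (-0.71, adjusted p = 0.0236), and the call was lost without Tconv array 1 or 3 or Treg array 2 or 3 (0.0564 to 0.11). The other 13 of 17 chemokine receptors did not pass, Ccr4 (0.00) and Ccr8 (-0.06) included. P2ry10 (1.30 ± 0.16) and the gut homing receptor Gpr15 (1.10 ± 0.21) were higher, and Gpr183, a receptor for oxysterols, was lower (-0.91 ± 0.12). Of 18 integrin chains Itgb8, Itgae (CD103, 1.74 ± 0.11) and Itga6 (0.63 ± 0.11) were higher and Itgb3 was lower (-1.13 ± 0.20). Both counts stand beside 2.84% of all genes called higher and 1.7% called lower.

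Lineage factors of helper T cells were partly higher and partly lower. Hopx, a homeodomain protein, read 10.74, 10.88 and 10.90 against 8.56, 8.39 and 8.78 (4.8-fold), Ahr, the aryl hydrocarbon receptor, was 3.2-fold higher and Irf4 2.61-fold. Gata3, the type 2 helper factor, was higher by 0.94 ± 0.12 and Nfil3 by 0.82 ± 0.13. Tbx21 (T-bet), the type 1 helper factor, read 5.11, 5.08 and 5.27 in Treg, dim on average, against 6.95, 6.74 and 7.16, and Runx3 was 2.49-fold lower. Eomes was called higher (0.81, adjusted p = 0.0485) but lost the call without Tconv array 1 or 3 or Treg array 2 or 3 (0.129 to 0.202). In all, 6 of 18 such factors were higher and 2 lower, where 2.84% and 1.7% of all genes were. Maf (1.02, adjusted p = 0.0892), Rora (0.59), Bcl6 (0.31) and Prdm1 (-0.09, adjusted p = 0.862) did not pass. Ikzf3 (Aiolos) was higher by 0.65 ± 0.09. Ikzf1 (Ikaros) was lower by 0.62 (-0.62, adjusted p = 0.022), a call kept without Treg array 3 and lost without any other one array (0.0626 to 0.0754).

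Factors induced through the T cell receptor were measured in cells gated as CD69-. Nr4a1, a direct readout of receptor signals, read 11.05, 10.75 and 10.81 against 9.92, 9.81 and 9.47 (1.14 ± 0.18), and Nr4a3 changed by 1.10 ± 0.16. Nr4a2, at 1.02, had an adjusted p of 0.0679, and Egr1 (-0.07), Egr2 (0.56) and Egr3 (-0.61) did not pass. Of 15 AP-1, BATF and BACH factors Fosl2 was called, and it was lower (-1.18 ± 0.12, adjusted p = 7.41e-05), while Fos (0.29), Jun (0.22) and Batf (0.23) did not pass. Dusp1, an immediate early phosphatase, was higher with Treg values of 11.35, 10.77 and 11.74 (1.07 ± 0.20). Of 33 genes of T cell receptor signalling Cd5 was higher and Themis (-1.07 ± 0.09) and Grap2 (-0.63 ± 0.11), 2 adaptor genes, were lower. Cd3d, Cd3g and Cd247 (receptor chains), Zap70 (a kinase), Lat (an adaptor) and Plcg1 (a phospholipase) did not pass. Their differences were -0.39 to -0.08. Beside the 4.55% of all genes that were called, counts this small say little about the AP-1 or receptor signalling genes as a group.

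Genes listed as lower in Treg were so in this strain: 13 of 17 were called lower and 0 higher, with a median of -0.88, where 1.7% of all genes were called lower. Besides Pde3b and Dapl1, these were Id2 (3.23-fold lower, 7.66, 7.19 and 7.11 against 9.03, 9.21 and 8.78), which blocks E protein factors, Igfbp4 (2.71-fold), the chemokine gene Ccl5 (-1.37 ± 0.13), Fasl, Themis, Actn1, Ccr7, Tgfbr2, Il7r, Lef1 and Satb1. The list was written with results of these data known. Lef1 (-0.63, adjusted p = 0.0113) lost its call without Tconv array 1 (0.0517) or Treg array 2 (0.0578). Il2 (-0.21) and Ifng (-0.40), the cytokines Treg cells are known not to make, did not pass, and neither did Cd40lg and Bach2. By contrast, of 16 genes of naive and quiescent T cells 4 were called, all lower and all on the former list, and the median was -0.03. Foxo1 (0.06), Klf2 (0.18), S1pr1 (-0.14) and Ets1 (0.07) did not pass. Of 18 cyclic nucleotide enzymes 4 were lower and 0 higher: Pde3b, the phosphodiesterase Pde7a (-0.84 ± 0.12), the kinase subunit Prkar2a (-0.93 ± 0.12) and the cyclase Adcy7 (-0.46 ± 0.08).

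Of the 35 Treg-associated genes measured, 30 were called higher and 0 lower, with a median change of 1.80, where 2.84% of all genes were called higher. Like the list of lower genes, it is no independent evidence of direction. Besides the genes above, Cd83 (2.29 ± 0.17), the folate receptor gene Izumo1r (2.01 ± 0.22), Ecm1 (1.80 ± 0.14), Capg (1.78 ± 0.09) and Swap70 (1.44 ± 0.13) were higher. S100a6 (0.75, adjusted p = 0.138), S100a4 (0.40), Socs2, Icos and Prdm1 were the 5 not called. Suppressive mediators were higher by small amounts: Ebi3, a subunit of IL-35, by 0.78 ± 0.10, the enkephalin precursor Penk by 1.0 ± 0.15 and granzyme B (Gzmb) by 0.66 ± 0.13, while Fgl2 was called at dim levels in both groups. Il10 read 5.82, 5.89 and 6.06 against 5.52, 5.47 and 5.68 (0.37, adjusted p = 0.0478) and lost the call without Tconv array 1 or 2 or any one Treg array (0.0502 to 0.2). Il12a, the other IL-35 subunit gene (0.01), Gzma (-0.21) and Prf1 (-0.11) did not pass.

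**Figure D4:**
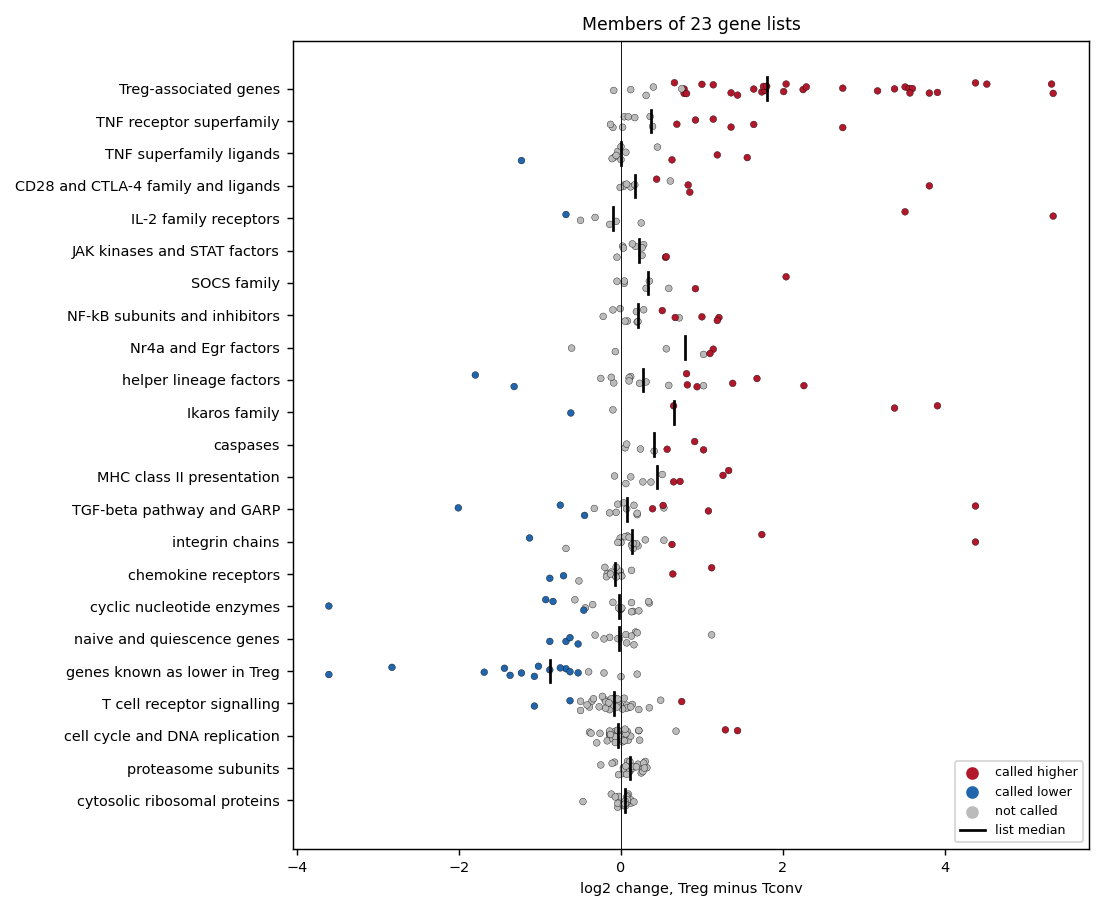
Log2 change, Treg minus Tconv, of every measured member of a choice of gene lists, with genes called higher in red, called lower in blue and not called in grey, and a black bar at each list median. Points are spread vertically only to separate them. Treg-associated genes have a median of 1.80 and genes known as lower in Treg one of -0.88, and the ribosomal and proteasome genes lie near 0 with 0 called.

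Among BCL2 family and caspase genes the few calls were all higher in Treg, where 2.84% of all genes were called higher and 1.7% lower. The death ligand gene Fasl was lower. Of 14 BCL2 family genes Pmaip1 and the survival gene Bcl2l1 were higher, the latter at 9.44, 9.44 and 9.39 against 8.75, 8.42 and 8.49 (0.87 ± 0.11), though its 3 dimmer probe sets did not pass, at -0.15 to 0.08. Bcl2 (0.85 ± 0.35, adjusted p = 0.348), Bcl2l11 (0.34) and Mcl1 (0.15) did not pass. Of 7 caspases the inflammatory Casp1 (0.91 ± 0.14) and Casp4 (1.02 ± 0.16) and the initiator Casp8 (0.57 ± 0.10) were higher and 0 were lower.

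MHC class II genes were higher in part. H2-Ob, a modulator of peptide loading, read 11.29, 11.29 and 11.13 against 9.82, 10.18 and 9.72 (1.33 ± 0.14), H2-Aa read 8.29, 9.14 and 8.82 against 7.33, 7.41 and 7.73 (1.26 ± 0.23) and H2-Eb1 changed by 0.73 ± 0.13. H2-Oa (0.65, adjusted p = 0.0401) lost its call without Tconv array 1 or 2 or Treg array 2 or 3 (0.05 to 0.176). Cd74 (0.27), H2-Ab1 (0.06) and Ciita (0.12) did not pass. So 4 of 10 genes were called higher, where 2.84% of all genes were. Cells that present antigen carry these genes too. Of 17 B cell markers 2 were called higher and 1 lower. Cd79b was higher (0.84 ± 0.10), Bank1 was higher (0.77, adjusted p = 0.0301) but lost the call without Tconv array 1 or 2 or Treg array 2 or 3 (0.0655 to 0.148), and Pou2af1 was lower. The summed B cell marker intensity was 3815 to 4056 in Treg arrays and 4369 to 4678 in Tconv arrays. Ighm, the heavy chain of immunoglobulin M, which was not called (-0.36), made up 53.6% to 65.4% of that sum, and without it the sums overlapped (1502 to 1769 in Treg and 1619 to 1865 in Tconv). The sum of 8 dendritic cell markers was 1055 to 1225 against 965 to 1097, with 0 called. That of 13 monocyte and macrophage markers was 10714 to 13089 against 10120 to 10693, with Fcgr3 lower (-0.89 ± 0.11) and 0 higher, and Csf1r (-0.07), Cd14 (-0.08) and Adgre1 (0.01) not called. Ctss, a class II pathway protease that stands on both lists and was not called (0.37), made up 61.4% to 81.2% of that sum, and the rest summed to 2463 to 3122 in Treg and 2994 to 4125 in Tconv. The part of such cells in the class II values was not tested.

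Markers of the other cells a spleen sort could hold were counted in 8 lists. Of their 79 genes 3 were called higher and 3 lower, where 4.55% of all genes were called. Beyond those named, Crtam, a gene of activated CD8 T cells, was lower (-0.67, adjusted p = 0.00952) and lost the call without Tconv array 2 (0.051), and Eomes stands on the list of NK and innate-like T cells. Ncr1 (0.05), Tyrobp (0.05) and Cd8b1 (-0.05) did not pass. The 5 CD8 T cell markers summed to 622 to 712 in Treg and 645 to 792 in Tconv. Without Nkg7, the brightest, the sums did not overlap (363 to 379 against 395 to 448), and the part of CD8 T cells in this was not tested. The sums of the NK and innate-like list overlapped, at 1025 to 1306 and 993 to 1163. Lists of neutrophil, erythroid and platelet, and stromal and endothelial genes had 0 calls, and their summed levels overlapped between the groups.

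Lists of growth and housekeeping genes were read beside the 4.55% of all genes that were called. Of 33 cell cycle and replication genes Cdk6 (1.44 ± 0.11) and Myb (1.29 ± 0.23) were higher, whereas the proliferation genes Mki67 (-0.14), Top2a (-0.39) and Mcm2 (-0.30) did not pass, and the list median was -0.04. Of 14 glycolysis genes the glucose transporter Slc2a3 was steady in both groups, at 11.71, 11.74 and 11.76 against 10.36, 10.26 and 10.30 (2.7-fold higher). Hk2 was called higher (0.55, adjusted p = 0.0258) and Pdk1 lower (-1.06, adjusted p = 0.0135). Hk2 lost its call without Tconv array 2 or 3 or Treg array 2 or 3 (0.0738 to 0.11) and Pdk1 without Tconv array 1 or 2 or Treg array 3 (0.0532 to 0.07). Of 24 interferon response genes Gbp3 and Isg20 (0.97, adjusted p = 0.0171) were higher and Oas2 (-0.53, adjusted p = 0.0179) was lower, of which Oas2 lost its call without any one array (0.0508 to 0.0648) and Isg20 without Tconv array 2 or 3 or Treg array 3 (0.0599 to 0.085). The 21 ribosomal protein genes (median 0.05), 25 proteasome genes (0.11), 12 class I MHC genes (0.25) and 9 Kruppel-like factors had 0 calls.

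The same contrast in NOD mice shows how far the B6.H2g7 changes recur. Of the 517 genes higher in B6.H2g7 Treg, 505 had a change of the same sign in NOD and 356 were called there too. Of the 310 lower genes 296 had the same sign and 177 were called. In NOD 797 genes were called (4.38%). The change itself differed between the strains for 42 probe sets (0.0933%). Counted by brightest probe set it differed for 20 genes (0.11%), of which 16 were among those called in B6.H2g7, 10 higher and 6 lower. Gsta4, Hopx, P2rx7, Lad1 and Khdc1a were higher in B6.H2g7 Treg by 3.02, 2.26, 1.86, 2.94 and 2.06 (Khdc1a from a dim Tconv level) and were not called in NOD, at -0.10, 0.21, 0.39, -0.07 and -0.01. Gsta4 read 9.33, 9.60 and 9.55 in Treg against 6.57, 6.45 and 6.40 in Tconv of B6.H2g7, with no overlap. Il18r1, the IL-18 receptor chain, was lower in B6.H2g7 Treg (9.41, 9.52 and 9.69 against 10.25, 10.11 and 10.24) and changed by 1.04 in NOD.

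**Figure D5:**
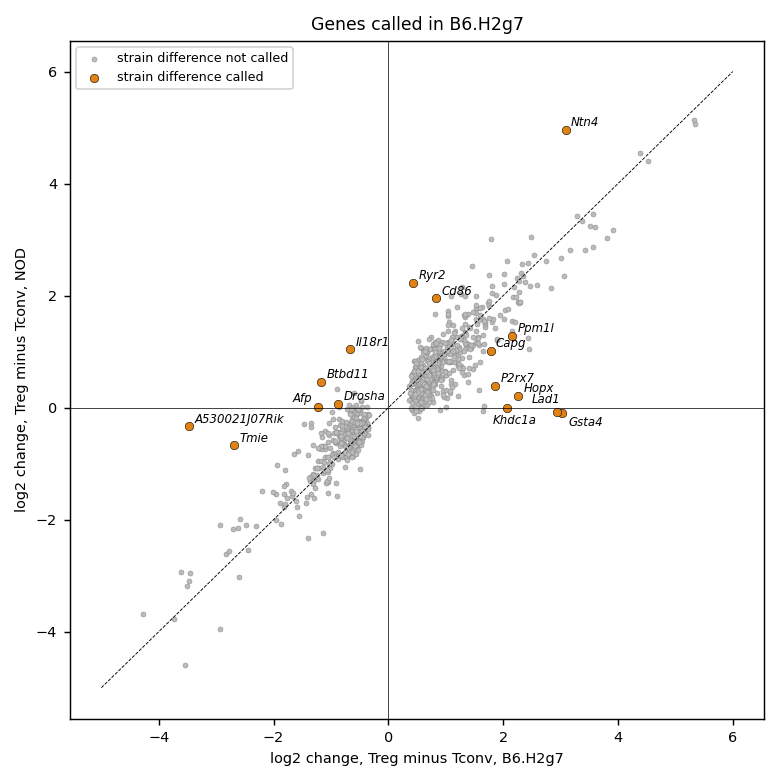
Log2 change of the 827 genes called in B6.H2g7, with B6.H2g7 on the horizontal and NOD on the vertical axis, and a dashed line of equal change. Orange points are the 16 genes whose change differed between strains (adjusted p under 0.05), and the others are grey. Most points follow the dashed line, while Gsta4, Lad1, Khdc1a, Hopx and P2rx7 lie near 0 in NOD.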

How the data were processed

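RNA of 12 pools was hybridised to Affymetrix arrays after Trizol extraction and 2 rounds of amplification, per the labels' protocols. The authors deposited 1 linear intensity per probe set, normalized with RMA (series text; the submitters' processing notes name it too), whose version is not given in the sources used here. RMA shares information between arrays, and no depth or detection call exists, so the number of arrays limits the precision. Here log2 of the deposited intensities was taken with no offset or filter, and 64 control probe sets of 45101 were left out. Genes were named from the platform annotation: 34945 probe sets name 1 gene, 932 several and 9160 none, and 34741 probe sets carry an Entrez ID found in RefSeq (0 symbols changed). A gene is its brightest probe set over all 12 arrays. A group mean under 5.28, the 25th percentile of probe set means, is called dim; no fold is given there.

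Group means were fitted in limma 3.58.1 under R 4.3.3 with default empirical Bayes moderation, over all 12 arrays, which share 1 spread per probe set, with Benjamini-Hochberg adjustment over 45037 probe sets. P-values measure the spread between pools. For single genes an exact permutation of 6 arrays reaches 0.1 at best and was not run. On data simulated for this comparison, the fit called 48% of 50 planted changes of 0.585 (log2) and 94% of those of 1. It called 84% of those of -1 and 98% of those of 2, with 8 false calls among 170. The measured arrays gave 1519 calls, and the adjusted cutoff depends on how many probe sets change. Weights of the measured arrays of this strain ranged from 0.352 to 3.98, and some arrays had correlated deviations (below). The shares thus describe the simulated data, and recovery under those conditions was not tested. The text names the 30 largest increases and decreases among called genes without overlapping arrays, check genes, and members of 52 gene lists (664 measured genes), of which up to 6 per list by smallest p and, beyond these, members chosen after their values were seen. The gene lists and the rules were chosen with earlier results of these data known. Replicate numbers were not taken as pairs of arrays (deviations of same-numbered Treg and Tconv arrays correlated by 0.521, -0.080 and 0.504). Whether arrays of the same number share a batch was not tested. Alternatives were other arrays, weights, priors, filters, offsets, normalization, a replicate block, an actin covariate, leaving out arrays, and means over a gene's probe sets.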

Additional observations from a re-analysis of the deposited data

Results flagged for a closer look

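For 11 genes named by rule or called on a gene list, the change from Tconv to Treg differed between NOD and B6.H2g7. The test was of that difference (limma, adjusted over all probe sets). Khdc1a, named above for its strain difference, is not among the 11, and its NOD change minus B6.H2g7 change was -2.07 (adjusted p = 0.000249). The NOD change minus the B6.H2g7 change was -3.12 for Gsta4, -3.00 for Lad1, -2.05 for Hopx, -1.47 for P2rx7 and -0.77 for Capg, whose increases were larger in B6.H2g7. It was 1.87 for Ntn4 and 1.11 for Cd86, whose increases were larger in NOD. For genes lower in B6.H2g7 Treg it was 3.15 for A530021J07Rik, dim in Treg, 2.02 for Tmie and 1.70 for Il18r1. For Bcl2l15, not called in B6.H2g7, it was 1.39. A second A530021J07Rik probe set gave 3.29 and a second P2rx7 probe set gave -1.81 (adjusted p = 0.0837). With 3 arrays in a group, single arrays were not tested for standing apart.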

How the results depend on the processing

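The comparison of Treg with Tconv called 1519 probe sets. Fitting only the 6 B6.H2g7 arrays called 976, of which 957 were among the 1519. Array weights called 3460, of which 1490 were among them (51.3% of the 3460 higher, against 60.4%), the actin covariate called 2496, and 547 were left when a log2 change of at least 1 was also asked. Leaving out 1 of the 6 arrays gave 1057 to 1272, and leaving out the 4 arrays numbered 1 gave 1150. A trended prior, the dim filter, the offset and repeated quantile normalization gave 1436 to 1612. With the replicate block 2286 were called in 12 arrays and 1702 in 6. The block does not stand for a known pairing. Treg arrays 1 and 3 correlated best with the Tconv array of their own number (0.521 and 0.504). Treg array 2 correlated best with Tconv array 3 (0.369), so not every array matched its own number. The probe sets whose change differed between strains numbered 42, and 89 with the replicate block, 79 with array weights, 71 with the actin covariate, 26 without dim probe sets and 29 to 38 without 1 array. Zbtb16, which was not called in the main fit (0.09), stood at -0.41 (adjusted p = 0.0243) as the mean of its probe sets. Of 175 named genes that were called, 26 lost the call with only 6 arrays and 15 to 24 without 1 array. The block with 6 arrays was not run for the strain difference, which needs both strains.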

Other observations

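Neighbouring genes in the RefSeq order were called together in 74 of 16451 adjacent pairs of genes on the array, 55 in the same direction and 19 in opposite directions. Pairs of which both rose included Gpr83 (3.60) with Izumo1r (2.01), Tnfrsf4 (2.74) with Tnfrsf18 (1.64), Casp1 (0.91) with Casp4 (1.02), Gbp3 (2.59) with Gbp2b and Stat5b with Stat5a. Pairs of which both fell included Tmie (-2.69) with Als2cl (-1.78), Pdlim4 (-2.93) with P4ha2 (-1.11) and Il1rl2 (-3.47) with Il18r1 (-0.66). Ikzf4 (3.38) stood beside Suox (0.51), and Il7r (-0.68), which fell, beside Capsl (0.48), which rose. The pairs named are examples. With 4.55% of all genes called, some neighbours are both called without any link, and how many was not worked out. No test was made of these counts.

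Of the called probe sets 231 name no gene alone, 129 higher and 102 lower in Treg, and they were not followed further.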
